A study of Mus musculus with 8 samples.

Results

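The aryl hydrocarbon receptor gene Ahr, the gene of its DNA-binding partner Arnt and 5 classical target genes, Ahrr, Tiparp, Cyp1a1, Cyp1b1 and Nqo1, were followed in stimulated mouse CD4 T cells. These 7 genes were chosen by name among 22180 genes that had a transcript cluster with a single gene symbol, and all 7 were measured. Where a gene had several clusters, the brightest by its mean over all 8 arrays was used. Ahr was picked with its higher level in CD45RBlow cells already known, so its values between subsets are given as a description. The list of 7 was also set with earlier results of these data known. The p-values of the other members do not allow for that choice. The 8 arrays held 4 groups of 2, all of splenic CD4+CD25- T cells from C57BL/6 mice aged 6 to 8 weeks. Wild-type CD45RBhigh, wild-type CD45RBlow, CCR2-/- CD45RBhigh and CCR2-/- CD45RBlow cells were sorted by flow cytometry. CD45RB is a form of the surface phosphatase CD45, which naive T cells carry at a high level, and CCR2 is the receptor of the chemokine CCL2. All groups were activated on plates coated with antibodies to CD3 and CD28, and no unstimulated cells were measured. The labels give the activation time as 48 h in the protocols and as 2 h in the design. No label gives the number of mice behind a sample, so the p-values here cover only sample-to-sample spread, part of which may be technical.

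AhR is a transcription factor of the bHLH-PAS family that rests in the cytosol with HSP90 chaperones until it binds a ligand, such as a dioxin or a product of tryptophan. The bound receptor enters the nucleus, pairs with ARNT and binds DNA at sites with the core GCGTG. Cyp1a1 and Cyp1b1 encode cytochrome P450 enzymes that break down its ligands, Ahrr encodes a repressor that competes for ARNT, and Tiparp encodes a mono-ADP-ribosyltransferase that limits the receptor. Nqo1 encodes a quinone reductase that NRF2 controls as well. In T cells AhR is known for its high level in Th17 cells and for its part in the expression of Il22 and Il10.

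The RefSeq promoter table for GRCm38.p6 matched 6 of the 7 members, Ahr being the exception. In the 250 bases before the start, 5 of the 6 members held the AhR core GCGTG on either strand, as did 28.2% of all 32851 promoter windows of that length. Ahrr held 3 copies, Arnt, Tiparp, Cyp1a1 and Cyp1b1 held 1 each, and Nqo1 held 0 in this window. This core is also a form of the hypoxia response motif, so a match does not name the factor. A match to the NRF2 motif TGACNNNGC, on either strand, lay in 10.2% of the windows and among the members only in that of Arnt, with 2 matches. The windows of 3 targets that differ in level and in their relation to Ahr are shown on the gene's strand, with the core in capitals (CACGC where it lies on the other strand). That of Tiparp is chr3:65528197-65528446, plus strand, that of Ahrr chr13:74292332-74292581, minus strand, and that of Cyp1a1 chr9:57697363-57697612, plus strand.
Tiparp: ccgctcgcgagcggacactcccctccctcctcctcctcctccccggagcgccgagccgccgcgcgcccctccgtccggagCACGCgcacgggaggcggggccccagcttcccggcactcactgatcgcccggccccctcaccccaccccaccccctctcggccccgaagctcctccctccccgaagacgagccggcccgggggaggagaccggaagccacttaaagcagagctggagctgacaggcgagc
Ahrr: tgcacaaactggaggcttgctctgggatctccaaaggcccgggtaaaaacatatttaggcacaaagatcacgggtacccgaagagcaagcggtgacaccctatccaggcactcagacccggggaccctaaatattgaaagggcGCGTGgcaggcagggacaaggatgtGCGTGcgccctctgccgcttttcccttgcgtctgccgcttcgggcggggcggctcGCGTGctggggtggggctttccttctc
Cyp1a1: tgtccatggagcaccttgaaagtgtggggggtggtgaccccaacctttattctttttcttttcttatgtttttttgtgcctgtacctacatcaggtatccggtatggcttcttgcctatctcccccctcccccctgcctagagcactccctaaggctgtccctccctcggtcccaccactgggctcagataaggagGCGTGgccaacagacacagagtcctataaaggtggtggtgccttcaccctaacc

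The values are log2 expression from RMA, with array medians from 4.92 to 5.05. Replicate arrays correlated over all clusters with r between 0.984 and 0.994. The female-specific transcript Xist had log2 levels of 4.45 to 5.02 in replicate 1 and 11.7 to 12.1 in replicate 2. The Y-linked Kdm5d had 8.83 to 9.13 in replicate 1 and 7.58 to 7.78 in replicate 2. The replicate numbers thus differed in sex-linked transcripts within every group. The main limma tests have no term for the replicate number, so the spread they use includes any such shift. Group means of Cd4 were 11.58 to 11.64, and none of the 6 measured CD4 T cell markers was below the filter described next. Ccr2, the deleted gene, was dim in all groups, from 4.36 ± 0.13 in wild-type CD45RBhigh to 4.93 ± 0.32 in CCR2-/- CD45RBlow cells (mean ± SD, n = 2). Whether its probes lie in the deleted part is not known here, so it checks no label. A gene was tested if at least 2 arrays had it at or over their 40th percentile, which lay at 4.53 to 4.63 on the log2 scale. Ahr, Arnt and Tiparp passed on all 8 arrays. Ahrr and Cyp1b1 reached the percentile on 1 array each and Cyp1a1 and Nqo1 on 0, so these 4 were not among the 13508 genes tested.

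Ahr had more transcript in CD45RBlow than in CD45RBhigh cells of both genotypes. Its log2 level was 8.43 and 8.41 in replicates 1 and 2 of wild-type CD45RBlow cells and 9.05 and 8.58 in those of CCR2-/- CD45RBlow cells. In CD45RBhigh cells it was 6.80 and 5.71 in wild type and 5.32 and 5.76 in CCR2-/-. The subsets did not overlap, and the lowest CD45RBlow array exceeded the highest CD45RBhigh array, which was wild-type replicate 1. Of the genes tested, 6.13% were split in this way and direction. Averaged over genotypes the difference was 2.72 on the log2 scale, a 6.60-fold higher level. Within a replicate number it was 1.64 and 2.70 in wild type and 3.73 and 2.82 in CCR2-/- cells. Without wild-type CD45RBhigh replicate 1 the wild-type difference was 2.72 in place of 2.17.

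The groups ran in the order CCR2-/- CD45RBhigh (5.54 ± 0.31), wild-type CD45RBhigh (6.25 ± 0.77), wild-type CD45RBlow (8.42 ± 0.02) and CCR2-/- CD45RBlow (8.81 ± 0.33; mean log2 level ± SD, n = 2). Neighbours of the same subset did not differ past limma's threshold. CCR2-/- minus wild type was -0.71 in CD45RBhigh cells (95% confidence interval -1.52 to 0.09, limma adjusted p = 1) and 0.39 in CD45RBlow cells (-0.41 to 1.20, limma adjusted p = 0.9998). The subset difference of Ahr was larger by 1.10 in CCR2-/- than in wild type, with an interval from -0.03 to 2.24 (limma interaction, adjusted p = 0.9998). These values rest on the wild-type CD45RBhigh arrays, which differ most. Without replicate 1 of that group the interaction was 0.56 and the genotype difference in CD45RBhigh cells -0.17, and without its replicate 2 they were 1.65 and -1.26. In CD45RBlow cells the genotype difference ran from 0.16 to 0.63 with single CCR2-/- CD45RBlow arrays left out. In bulk samples a larger share of cells that express a gene and more RNA per cell cannot be told apart.

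**Figure D1:**
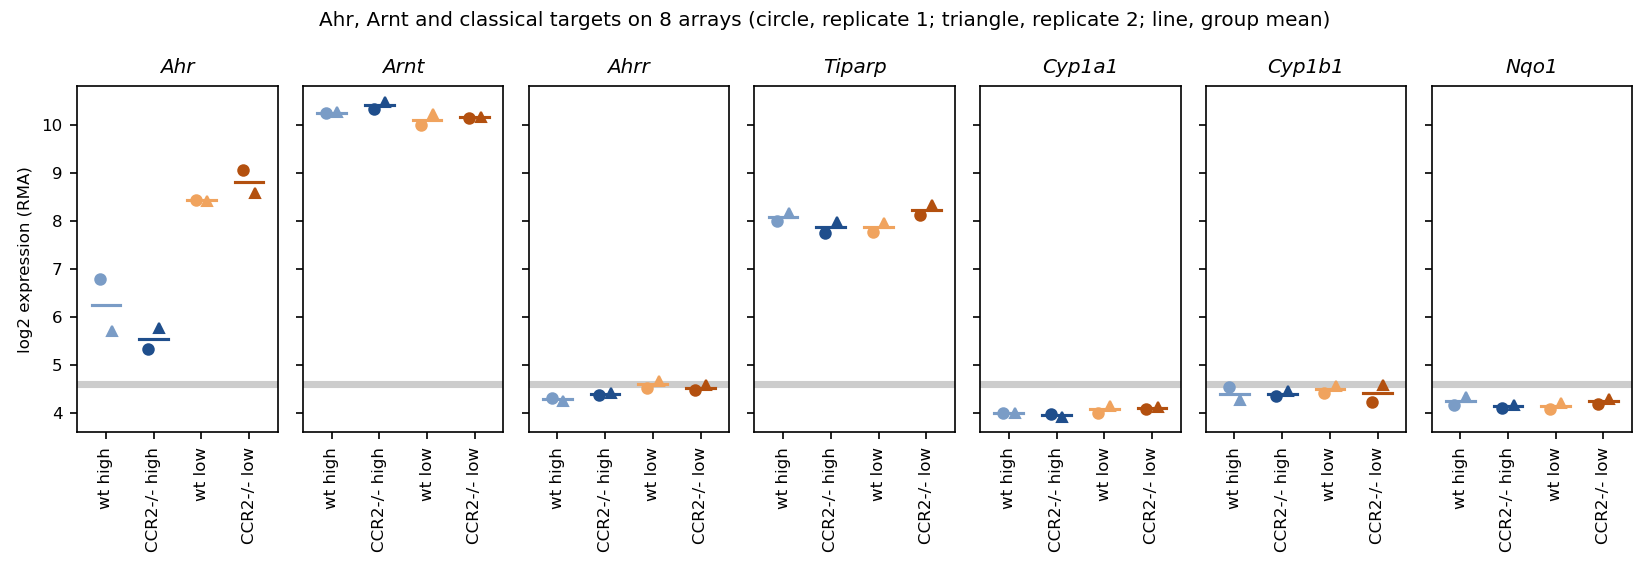
Log2 expression of the 7 genes on each of the 8 arrays, by group (wt, wild type; high and low, CD45RBhigh and CD45RBlow). Circles are replicate 1, triangles replicate 2, lines group means, and the grey band spans the arrays' 40th percentiles, from 4.53 to 4.63. Ahr separates the subsets, Arnt and Tiparp are well above the band in every group, and the other 4 genes lie around or below it.

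Arnt, the shared partner of AhR and of the hypoxia factor HIF-1alpha, was bright throughout, with array percentiles of 92.5 to 94.9. Its log2 level was 9.98 and 10.21 in wild-type CD45RBlow and 10.14 and 10.16 in CCR2-/- CD45RBlow cells. In CD45RBhigh cells it was 10.23 and 10.27 in wild type and 10.33 and 10.48 in CCR2-/-. Every CD45RBlow array was thus below every CD45RBhigh array, opposite to Ahr. Such a split, in that direction, was seen for 8.13% of the genes tested and 5.28% of all genes. The difference was small, -0.20 (interval -0.40 to -0.003), and did not pass limma's test (adjusted p = 0.270).

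Among the targets Tiparp was the only gene clearly above the dim range, and its averaged difference between subsets did not follow that of Ahr. Its log2 level was 7.77 and 7.95 in wild-type CD45RBlow cells and 8.12 and 8.33 in CCR2-/- CD45RBlow cells. In CD45RBhigh cells it was 8.00 and 8.15 in wild type and 7.75 and 7.98 in CCR2-/-. The subsets overlapped, and the averaged difference was 0.07 (interval -0.16 to 0.30, limma adjusted p = 0.790). The interval's upper end is a small fraction of the difference seen for Ahr.

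Within genotypes Tiparp went opposite ways. CD45RBlow minus CD45RBhigh was -0.24 and -0.20 in the wild-type pairs of replicates 1 and 2, and 0.37 and 0.35 in the CCR2-/- pairs. Over all genes 8.1% had both pairs of each genotype on opposite sides of 0. The interaction was 0.58 (interval 0.12 to 1.04). Its unadjusted p was under 0.05, and it did not pass limma's test over all genes (adjusted p = 0.9998). A dimmer Tiparp cluster, at 4.71 to 5.48, did not show the pattern, and with the mean of both clusters the interaction was 0.29. In wild type, where Ahr was 2.17 higher in CD45RBlow cells, Tiparp differed by -0.22 (interval -0.55 to 0.11, limma adjusted p = 0.770). In CCR2-/- cells, where Ahr was 3.27 higher, Tiparp differed by 0.36 (interval 0.03 to 0.69, limma adjusted p = 0.355). Its unadjusted p there was under 0.05, as was that of 12.3% of all genes tested. CCR2-/- minus wild type was -0.21 for Tiparp in CD45RBhigh (interval -0.54 to 0.12) and 0.37 in CD45RBlow cells (0.04 to 0.70). These signs were those of Ahr, limma called neither, and both genes had their highest mean in CCR2-/- CD45RBlow cells.

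Ahrr, the receptor's repressor, was dim but higher on all CD45RBlow arrays. Its log2 level was 4.52 and 4.67 in wild-type CD45RBlow and 4.47 and 4.57 in CCR2-/- CD45RBlow cells. In CD45RBhigh cells it was 4.31 and 4.25 in wild type and 4.36 and 4.41 in CCR2-/-. The averaged difference was 0.22 (interval 0.06 to 0.38), against 2.72 for Ahr. In a fit without the filter it did not pass (limma adjusted p = 0.185).

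Cyp1a1, the target most used as a readout of the receptor, was among the dimmest clusters on every array, with percentiles of 5.85 to 18.97. Its log2 level was 4.002 and 4.136 in wild-type CD45RBlow and 4.07 and 4.13 in CCR2-/- CD45RBlow cells. In CD45RBhigh cells it was 3.99 and 3.99 in wild type and 3.99 and 3.92 in CCR2-/-. Here too the CD45RBlow arrays were all higher, but by 0.12 on average (interval -0.03 to 0.26, limma without the filter, adjusted p = 0.533). Ahrr and Cyp1a1 were the 2 of 5 targets whose difference was above 0 in all 4 pairs of genotype and replicate number. Of all genes 12.7% had that. Every CD45RBlow array was above every CD45RBhigh array for 4.43% of all genes and for 1.78% of the genes under the filter, and below for 0.853% of the latter. The part of background signal in these values was not tested.

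Cyp1b1, the other P450 of the list, showed no order by subset. Its log2 level was 4.42 and 4.57 in wild-type CD45RBlow, 4.23 and 4.58 in CCR2-/- CD45RBlow, 4.53 and 4.26 in wild-type CD45RBhigh, and 4.35 and 4.45 in CCR2-/- CD45RBhigh cells. The subsets overlapped, with an averaged difference of 0.05 (interval -0.20 to 0.30, limma without the filter, adjusted p = 0.931). In both genotypes the pair of replicate 1 was below 0 and that of replicate 2 above it.

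Nqo1 was dim on every array, with log2 levels of 4.07 and 4.21 in wild-type CD45RBlow and 4.19 and 4.29 in CCR2-/- CD45RBlow cells. In CD45RBhigh cells it was 4.16 and 4.33 in wild type and 4.11 and 4.16 in CCR2-/-. The subsets overlapped almost fully, and the averaged difference was 0.0013 (interval -0.17 to 0.17, limma without the filter, adjusted p = 0.998). Its pairs were at -0.09 and -0.11 in wild type and 0.08 and 0.13 in CCR2-/-, the same signs as those of Tiparp, with an interaction of 0.21 (interval -0.13 to 0.54, adjusted p = 0.9998).

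**Figure D2:**
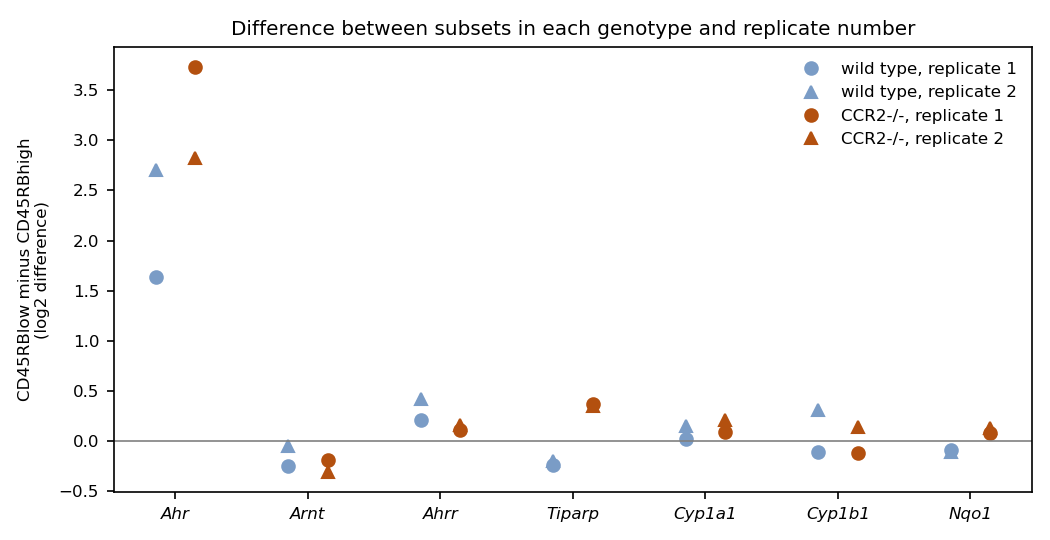
CD45RBlow minus CD45RBhigh (log2 difference) of the 7 genes within each genotype and replicate number, 4 values a gene. The Ahr values run from 1.64 to 3.73, those of the other 6 genes stay between -0.31 and 0.42, and Tiparp has its wild-type values below 0 and its CCR2-/- values above it.

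Of the members other than Ahr, Arnt and Tiparp were tested between subsets and 0 were called by limma at an adjusted p under 0.05. In the averaged comparison 3.03% of all genes tested were called (1.1% higher and 1.93% lower). In wild type it was 0.0888% (0.0444% in each direction), and in CCR2-/- cells 0.333% (0.141% higher and 0.192% lower). In the fit without the filter, where 1.59% of genes were called (0.546% higher), 0 of the 6 other members were called, while Arnt and Ahrr had an unadjusted p under 0.05. In the averaged comparison 2446 of 13508 genes tested, 18.1%, had such a p. For the subset effect in CCR2-/- cells 1665, 12.3%, had one, Tiparp among them. The number of genes called in the averaged comparison, 409, was 758 with the replicate number as a block. With single arrays left out it ranged from 39 (wild-type CD45RBlow replicate 1) to 547 (CCR2-/- CD45RBhigh replicate 2). Between genotypes, and for the interaction, limma called 0 of 13508 genes (0%) and 0 members. There 521 genes for the averaged genotype effect, 354 in CD45RBhigh, 298 in CD45RBlow and 160 for the interaction had an unadjusted p under 0.05. Tiparp was among them in CD45RBlow cells, where it was 0.37 higher in CCR2-/- (limma adjusted p = 0.9998), and for the interaction. The averaged genotype differences were -0.16 for Ahr, 0.11 for Arnt and 0.08 for Tiparp, with intervals that included 0. For the 4 dim targets they were between -0.05 and 0.02 in the fit without the filter.

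Genes of the receptor's complex and its relatives moved little between subsets. The list held HSP90 and other chaperones, nuclear export, the other bHLH-PAS factors and coactivators, and 17 of its 21 genes were tested. In CD45RBlow cells 0 rose and 1 fell, Ncoa2, a coactivator of nuclear receptors, by 0.55 on the log2 scale (limma adjusted p = 0.0479). That call was lost without the filter, with array weights, and when any single array other than wild-type CD45RBhigh replicate 1 was left out. The list's median difference was 0.13, against -0.01 over all genes tested. Hif1a, the partner with which Arnt serves the hypoxia response, differed by 0.23 (interval -0.15 to 0.61, adjusted p = 0.532).

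Further targets of the xenobiotic response were mostly dim. Of 15 listed genes 9 were measured and 5 tested, limma called 0, and 0 had an unadjusted p under 0.05. Cyp1a2, the third P450 of the family, was at 4.11 to 4.59 on the log2 scale, with a difference of 0.03 (interval -0.26 to 0.33, adjusted p = 0.937). The smallest p belonged to Cdkn1b, which encodes a cell cycle inhibitor (-0.25, adjusted p = 0.3998), and Xdh, encoding xanthine dehydrogenase (-0.37, adjusted p = 0.433). The median of the list was -0.11.

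Genes tied to AhR in T cells were, in contrast, often higher in CD45RBlow cells. Of 17 tested genes limma called 8 higher and 0 lower, where 1.1% of all genes tested were called higher and 1.93% lower. The median difference was 0.79, against -0.01 over all genes. This list was put together with earlier results of these samples known, among them the rise of Il10, Maf and Il21. Its direction and its count of calls are therefore no separate evidence. These 3 of the 8 are given with no test, and the p-values of the other genes do not allow for that choice. Il10 differed by 3.58, Maf, a transcription factor that drives it, by 2.54, and Il21 by 3.49. Prdm1, which encodes Blimp-1, rose by 1.67 (limma adjusted p = 0.0059). Ikzf3, encoding the zinc finger factor Aiolos, rose by 1.28 (adjusted p = 0.0147), and Entpd1, encoding the ectonucleotidase CD39, by 0.87 (adjusted p = 0.0271). Il22 differed by 0.21 (interval -0.33 to 0.76, limma adjusted p = 0.714) and Il17a by 0.79 (adjusted p = 0.241). The Il17a difference was 2.07 in the wild-type pair of replicate 1 and 0.34 in that of replicate 2. In the CCR2-/- pairs it was 0.49 and 0.26. With the replicate block Ccr6, a chemokine receptor gene, was also called higher and Stc2, encoding a stanniocalcin, lower, and with equal array medians Stc2 was called lower. Without the filter, and with array weights, 6 genes were called, without Il21 and Socs2. Without wild-type CD45RBlow replicate 1 the genes called were 3, Il10, Maf and Prdm1. Without replicate 2 of that group they were 5, namely those 3 with Il17a and Ccr6. With replicate 1 of CCR2-/- CD45RBlow left out 4 genes were called, and with replicate 2 of that group or of wild-type CD45RBhigh left out 5, all among the 8.

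The NRF2 pathway, which shares Nqo1 with AhR, did not move as a group. Of 17 tested genes limma called 0, and the median was -0.02. An unadjusted p under 0.05 was found for 4 of the 17, against 18.1% of all genes tested. Slc7a11, a cystine transporter, had the largest difference (-1.89, interval -3.13 to -0.65, adjusted p = 0.113), and Ephx1, an epoxide hydrolase, differed by -0.24 (adjusted p = 0.233). With the replicate block Slc7a11 was called lower and Txnrd1, encoding a thioredoxin reductase, higher. The NRF2 gene Nfe2l2 differed by -0.21 (adjusted p = 0.475) and its inhibitor Keap1 by 0.04 (adjusted p = 0.919).

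Targets of HIF-1, the other arm of Arnt, went both ways. Of 13 tested genes limma called 0, and the median was 0.08. The unadjusted p was under 0.05 for 4 of the 13, against the same 18.1% of all genes. Egln3, an oxygen-sensing prolyl hydroxylase, differed by 0.96 (adjusted p = 0.0524) and Ddit4, an inhibitor of mTORC1, by -0.50 (adjusted p = 0.0548). With the replicate block 1 gene, Egln3, was called higher, and 2, Ddit4 and Vegfa, lower. A filter at the 60th percentile, or eBayes with trend and robust settings, called Egln3 and Ddit4.

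Genes of a list around tryptophan, covering its metabolism and transport, tended lower in CD45RBlow cells, but limma called 0 of 10 tested. Of these 3 had an unadjusted p under 0.05, against 18.1% of all genes. The median was -0.25, against -0.01 over all genes tested, and 1 of 10 was above 0. Kyat1, a kynurenine aminotransferase, differed by -0.58 (interval -0.87 to -0.30, adjusted p = 0.0535) and was called lower with the replicate block and with the filter at the 60th percentile. Slc3a2, which encodes the heavy chain of the transporter that imports tryptophan and kynurenine, differed by -0.28 (adjusted p = 0.157). Of the 18 listed genes, the other 8 were either too dim to test or had no cluster of their own symbol. Ido1, Ido2, Tdo2 and Il4i1 were among these 8.

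**Figure D3:**
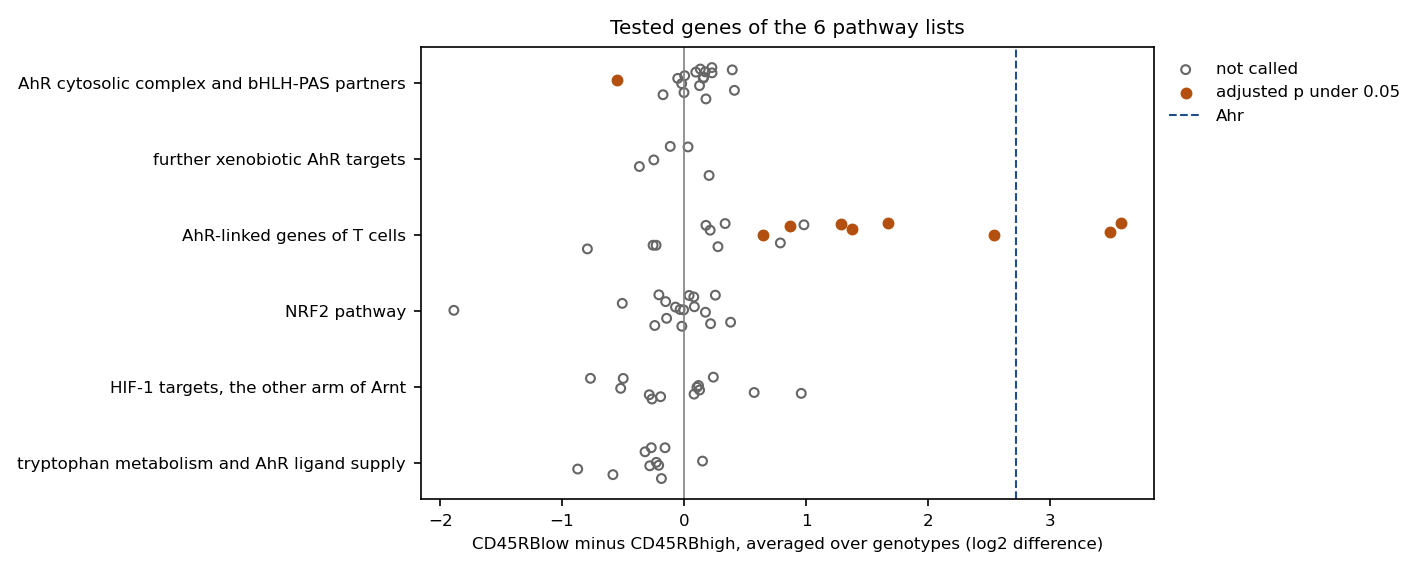
CD45RBlow minus CD45RBhigh, averaged over genotypes (log2 difference), for the tested genes of 6 lists around AhR. Filled points have a limma adjusted p under 0.05, open points do not, and the dashed line marks Ahr at 2.72. The filled points are 8 genes tied to AhR in T cells, all above 0, and Ncoa2 at -0.55, while the xenobiotic targets lie between -0.37 and 0.21.

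The genes whose profile over the 8 arrays was closest to that of Ahr were Gpm6b, Tnfrsf8, Maf, Il24, Itgb8, Il1r2, Erg and Lrrk2. Closeness was the root mean square difference between log2 values after each gene's mean was subtracted, over 12305 genes with a usual symbol. Gpm6b, a membrane proteolipid gene, was nearest at 0.23, followed by Tnfrsf8, encoding CD30, at 0.42 and Maf at 0.45, while the median gene was at 1.44. Gpm6b shared with Ahr the order of all 4 groups, at 6.63 ± 0.06 in CCR2-/- CD45RBhigh, 7.39 ± 0.97 in wild-type CD45RBhigh, 9.32 ± 0.19 in wild-type CD45RBlow and 9.65 ± 0.05 in CCR2-/- CD45RBlow cells. The measure favours genes with group levels and a subset difference like those of Ahr. The shared order of Gpm6b and the genes' own differences, from 2.08 for Erg to 2.82 for Itgb8, are therefore a description.

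**Figure D4:**
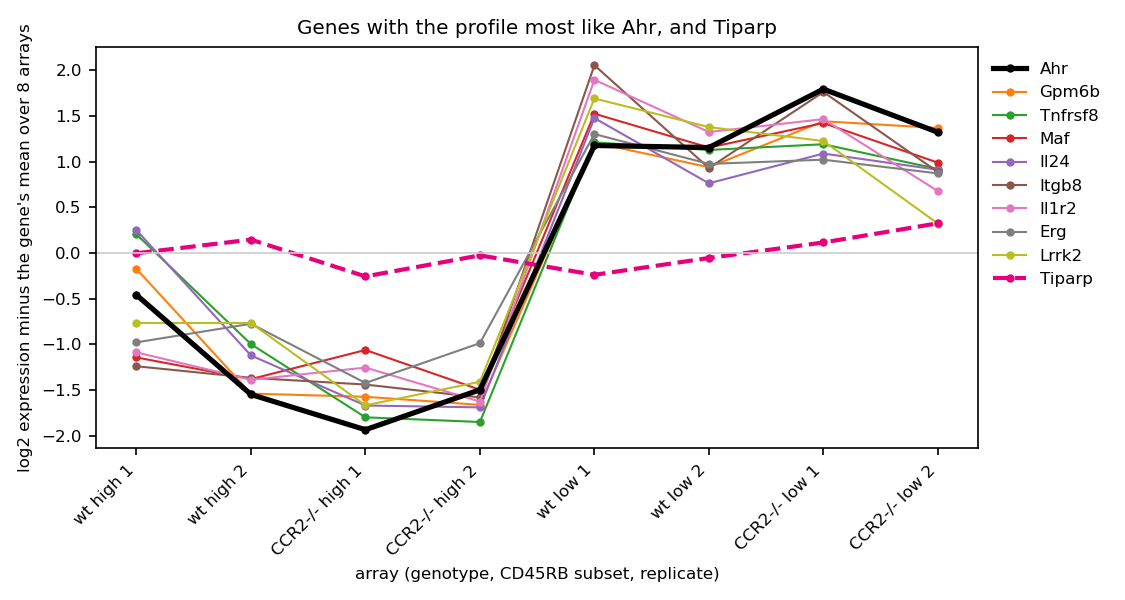
Log2 expression minus each gene's mean over the 8 arrays, for Ahr (thick line), the 8 genes closest to it and Tiparp (dashed). Lines join the values of a gene and the arrays have no order within a group. The 8 genes, picked for this closeness, rise and fall with Ahr between subsets, while Tiparp stays between -0.26 and 0.32.

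Markers of other cell states also differed between the subsets. Summed over the 7 regulatory T cell markers, log2 levels ran from 50.3 to 52.2 in the CD45RBhigh groups and from 56.6 to 62.2 in the CD45RBlow groups. Foxp3, the defining gene of that lineage, was at 5.31 to 5.88 on CD45RBhigh and 7.87 to 9.14 on CD45RBlow arrays. Limma called 4 of the 7 higher, Foxp3, Ikzf2, Ctla4 and Gpr83, against 1.1% of all genes tested. The other 3, Il2ra, Nrp1 and Capg, differed by 0.10, 0.42 and -0.04 (limma adjusted p = 0.591, 0.236 and 0.899). The marker lists were chosen with earlier results of these data known, so such counts are no separate evidence. The 4 measured Th17 markers of 5 summed to 17.4 to 18.2 in CD45RBhigh cells. On the CD45RBlow arrays the sums were 18.8 and 19.6 in CCR2-/- and 19.7 and 24.0 in wild type. The sum over 8 measured B cell markers of 9 was higher in CD45RBhigh cells, at 41.5 to 47.6 against 40.01 to 40.98, with Pax5 below the 40th percentile on all arrays. Some of these markers differed mainly in replicate 1. CD45RBlow minus CD45RBhigh of Cd79b was -1.24 in wild type and -1.89 in CCR2-/- cells there, against -0.04 and -0.08 in replicate 2. For Cd79a the values were -1.14 and -1.99 against 0.002 and -0.47. Ighm fell in every pair, by 1.03 on average in CD45RBlow cells (limma adjusted p = 0.0128), while Ebf1 differed by 0.38 in the other direction (adjusted p = 0.327). Of 8 measured macrophage and monocyte markers 6, Csf1r, Adgre1, Cd14, Lyz2, Itgam and Fcgr1, were below it on all arrays, as were 4 of 7 dendritic cell markers, Itgax, Flt3, Xcr1 and Siglech. Summed levels of all 8 macrophage and monocyte markers were 40.95 to 43.58 in CD45RBhigh and 39.79 to 40.30 in CD45RBlow cells, and those of all 7 dendritic cell markers 35.03 to 35.76 and 33.89 to 34.39. In CD45RBlow cells Ctss, a marker of the first list, fell by 1.23 (limma adjusted p = 0.0096), and Naaa, of the second, by 0.73 (adjusted p = 0.0286). Both CD8 genes together had 12.31 to 13.69 in CD45RBhigh and 11.60 to 11.86 in CD45RBlow cells, and 5 measured markers of NK and innate lymphoid cells had 22.22 to 23.61 and 21.83 to 22.25. The 5 neutrophil markers summed to 21.79 to 22.58 and 22.12 to 22.89, and 3 measured erythroid and platelet markers to 12.89 to 13.20 and 13.11 to 13.28. The 6 CD4 T cell markers overlapped, at 67.14 to 68.46 and 68.10 to 68.59. The part of these cell states in the Ahr difference was not tested.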

How the data were processed

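Per the submitters' processing notes, the authors made the deposited log2 expression values with RMA and Partek. Per the labels' protocols, each sample started from 200 ng of total RNA. Versions and options are not given in the sources used here. The values (3.07 to 13.92) were used as deposited. Since RMA equalises the arrays' distributions, it removes any shift common to most genes and shrinks differences near background. Precision is limited by the number of arrays, with a median standard error of 0.103 for the averaged subset difference.

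Groups and replicate numbers came from the sample titles, with arrays whose title has no number taken as replicate 1. Of 41034 clusters, 23521 had exactly 1 gene symbol in the platform annotation, 1814 had several and 15699 were unnamed here. The brightest cluster stood for each gene. Genes at or above the 40th percentile on at least 2 arrays were tested with limma 3.58.1 (R 4.3.3), with a mean for each group, default eBayes and Benjamini-Hochberg adjustment over 13508 genes. On simulated arrays the averaged subset comparison found 86 of 100 genes with a simulated difference of 1 (log2) and 100 of 100 with a difference of 2, and made 14 false calls among 13308 genes. The simulated noise was independent between arrays, with no shift between replicate numbers, so these rates need not hold for the real arrays.

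The members, the 6 pathway lists and the 10 marker lists were chosen with earlier results of these data known. Every member is named, with up to 5 called genes of each pathway list by smallest p, or 2 with the smallest p where none was called, the 8 genes closest to Ahr and a fixed set, part of which is not reported here. Vegfa, Txnrd1, Ccr6, Stc2 and Socs2 were named for their calls under alternative settings, and Ido1, Ido2, Tdo2 and Il4i1 as genes not tested. Ikzf2, Ctla4, Gpr83, Il2ra, Nrp1, Capg, Cd79a, Cd79b, Ighm, Ebf1, Ctss and Naaa were named as markers. All of these were named after the results were seen. Replicate 2 minus replicate 1 correlated across genes between every pair of groups (r = 0.109 to 0.531, all over the limit of 0.1), and the numbers were treated as pairing the arrays, although no label says what they mark. The reported tests have no term for them. The alternatives were other filters, the replicate block, the mean of a gene's clusters, equal array medians, array weights, other eBayes settings and each array left out in turn.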

Additional observations from a re-analysis of the deposited data

Results flagged for a closer look

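Tiparp was marked because its subset difference took opposite signs in the genotypes, with both wild-type pairs below 0 and both CCR2-/- pairs above it. The subset difference in CCR2-/- cells minus that in wild type was 0.58 on the log2 scale, and its interaction term did not pass limma's test (adjusted p = 0.9998, and 0.942 at the lowest over all alternatives). Nqo1 was marked for the same pattern at a much lower signal, with 0.21 (adjusted p = 0.9998 in limma without the filter). Of all 22180 genes, 8.1% showed such opposite signs.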

How the results depend on the processing

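Under every alternative run, limma called 0 members other than Ahr between subsets and 0 members for the genotype effects and the interaction, and 2 of 5 targets were above 0 in all pairs. With the replicate block the genes called were 758 for the subset effect averaged over genotypes, 104 (from 12) for the subset effect in wild type and 196 (from 45) for the subset effect in CCR2-/-. The block changed no call of a member. Array medians set equal gave 24 in wild type and 83 in CCR2-/-, array weights 116 and 7, and eBayes with trend and robust settings 31 and 69. Leaving out an array gave 39 to 547 genes for the averaged subset effect, 1 to 57 in wild type and 1 to 98 in CCR2-/-. With the mean of clusters the averaged Tiparp difference was -0.0032. Without wild-type CD45RBhigh replicate 1 the averaged genotype difference of Ahr turned from -0.16 to 0.11 (range -0.43 to 0.11 over left-out arrays). Arnt turned likewise in CD45RBlow to -0.058 without wild-type CD45RBlow replicate 1 (range -0.058 to 0.17), and for the interaction to 0.016 without replicate 2 of that group (range -0.21 to 0.016). The causes were not tested. Signal near background limits Ahrr, Cyp1a1, Cyp1b1 and Nqo1: a small true difference could be hidden there.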
